A study of Mus musculus with 6 samples.

Results

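The transglutaminases Tgm1 to Tgm6 were followed in 3 cultured mouse lines of endothelial progenitor cells (EPCs). Every probe that the array design names for any of these 6 genes (of 18138 gene names) was taken, which gave 8 of the 25697 probes, with 3 for Tgm5 and 1 for each of the others. The family was chosen on the Tgm5 signal of these same arrays, namely its large difference from the EPC line to the EPC_acLDL line. The Tgm5 levels are therefore given below as a description, without a test. The other 5 genes were taken for their family name alone.

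All 3 lines came from lung cells of athymic nude mice that had been sorted by flow cytometry on endothelial and stem cell surface markers and the absence of CD45, and all were grown in mouse endothelial medium with serum. EPC is the primary line at passage 3 to 6. EPC_acLDL is the same line after labelling with fluorescent acetylated low density lipoprotein (acLDL, a ligand taken up by endothelial cells), sorting of the positive cells and replating, also at passage 3 to 6. EPC_Late is the EPC_acLDL line at passage 16 to 20. RNA of each line was hybridized to 2 arrays, all on 1 MouseRef-8 v2.0 chip, and whether the 2 arrays of a line came from separate cultures is not settled by the labels, so that p-values measure the spread between these arrays, which may be technical. Below, the acLDL comparison sets EPC_acLDL against EPC, the late comparison sets EPC_Late against EPC, and the passage comparison sets EPC_Late against EPC_acLDL, each as the first line minus the second.

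Transglutaminases are calcium-dependent enzymes with a cysteine in the active site. They join a glutamine of one protein to a lysine of another, and the bond withstands most proteases. Tgm1, Tgm3 and Tgm5 are known from the epidermis, where they crosslink the cornified envelope of the skin. Tgm2, or tissue transglutaminase, is the widely expressed member, known from endothelium and from the matrix around vessels, and also binds GTP. Tgm4 is known from the prostate and Tgm6 from the nervous system. In each line the array reads RNA from the whole culture, so that more cells with a transcript and more transcript per cell cannot be told apart.

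Each probe has an intensity on a linear scale and a detection p-value, the share of that array's negative controls whose signal is no lower than that of the probe. A probe is called above background here where this p-value is below 0.05. Between 8.47% and 9.20% of all probes were above background on an array, where chance alone gives 5%, and 22811 probes (88.8%) were so on none of the 6. Of 20 probes for 15 endothelial genes only that of Kdr, which encodes the VEGF receptor Flk-1, was above background, on all 6 arrays. The probes of Pecam1, Cdh5, Tek and the other endothelial markers were so on no array, and neither were those of Ptprc, which encodes CD45. Of the 10 probes for blood cell markers 8 were above background on no array, whereas Csf1r, a receptor of macrophages, was so on 6 arrays by 1 of its 2 probes, and Spi1, a myeloid transcription factor, on 3. Duplicate arrays correlated at 0.989 to 0.992 (Pearson's r) across the probes tested. The paper describes 2 independent experiments, run in duplicate. Whether the 2 arrays of a line are independent replicates is not settled by the labels.

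Tgm5 was read above background in EPC_acLDL and EPC_Late by 1 of its 3 probes. The intensity of this probe, ILMN_2690144, was 355.9 and 405.1 on the EPC arrays, with detection p-values of 0.128 and 0.0852. In EPC_acLDL it was 809.9 and 836.8, with a detection p-value of 0 on both arrays, so that no control probe was as bright. In EPC_Late it was 548.0 and 550.0, with detection p-values of 0.0113 and 0.0125. The probe was thus above background on 4 of 6 arrays, 0 of 2 in EPC and 2 of 2 in each of the other lines. The lines did not overlap, with EPC lowest, EPC_Late between and EPC_acLDL highest.

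**Figure D1:**
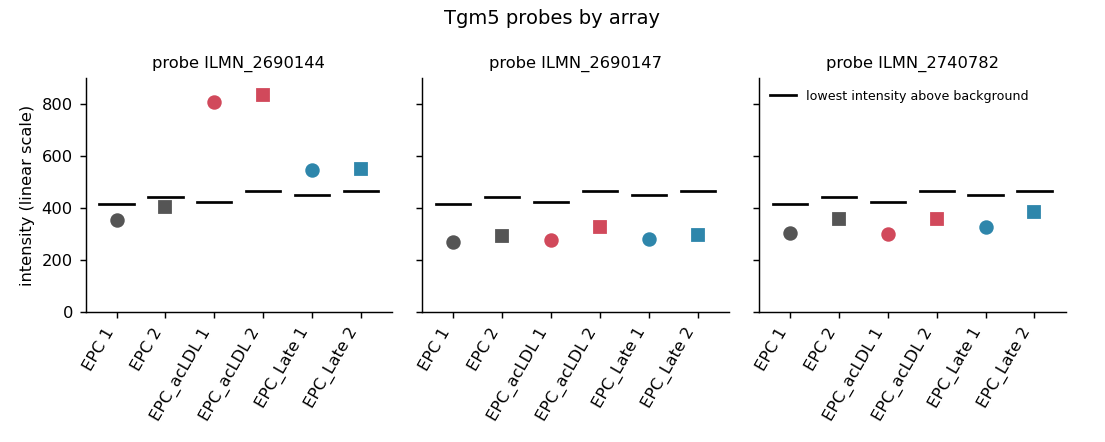
Intensity on a linear scale (vertical axis) of the 3 Tgm5 probes on each of the 6 arrays (horizontal axis, line and replicate number). Points are single arrays, and the black bars mark the lowest intensity above background on that array. Only ILMN_2690144 lies over the bars, on the EPC_acLDL and EPC_Late arrays.

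On the normalized log2 scale, after removal of the background estimated from the detection p-values and quantile normalization, the level of this probe was 6.22 ± 0.13 in EPC, 8.80 ± 0.05 in EPC_acLDL and 7.59 ± 0.07 in EPC_Late (mean ± SD of 2 arrays each). Differences follow the labels of the deposited columns. The gene list in the study gives Sox2, Cadm1 and most of its other genes the opposite direction, in the comparisons under which it names them, and whether the list or the column labels are turned was not tested. The direction of each difference here, that of Tgm5 included, thus rests on the column labels. If the list alone is turned, the differences stand as printed. If the labels of EPC and EPC_acLDL were exchanged, the acLDL difference of Tgm5 would keep its size and change its sign, and the late and passage differences would take each other's size, both with the other sign. The log2 difference was 2.58 in the acLDL comparison, 1.37 in the late comparison and -1.21 in the passage comparison. The 3 share their arrays and are not independent of each other. Since EPC was not above background, its differences are better read as bounds, in which the mean of the brighter line is set against the lowest signal above background on the EPC arrays. Tgm5 was at least 3.90-fold higher in EPC_acLDL than in EPC and at least 1.69-fold higher in EPC_Late than in EPC. Between EPC_acLDL and EPC_Late, where the probe was above background on all 4 arrays, the signal was 2.31-fold higher in EPC_acLDL.

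The size of these folds depends on how the background is removed. The ratio of the mean deposited intensities, background included, was 2.16 for EPC_acLDL over EPC and 1.44 for EPC_Late over EPC. Without background correction the bounds were 1.75-fold and 1.19-fold, and the difference between EPC_acLDL and EPC_Late was 1.47-fold. The order of the 3 lines was EPC, EPC_Late, EPC_acLDL under every setting run.

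**Figure D2:**
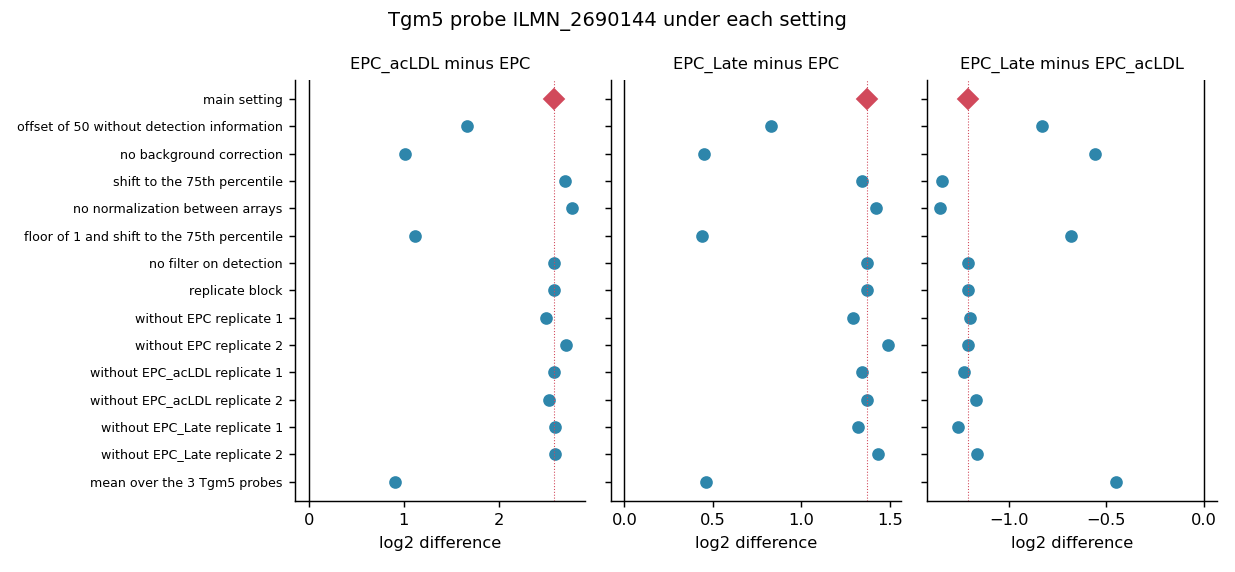
Log2 difference in Tgm5 (horizontal axes, 1 panel per comparison) under the main setting (red diamond, dotted line) and each alternative (blue points). All values are of probe ILMN_2690144 except those in the last line, which average the 3 probes. All 15 values lie above 0 in the first 2 panels and below 0 in the third, and the values with all 3 probes averaged, with the floor and shift, or with the background kept are the closest to 0.

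The other 2 Tgm5 probes were above background on no array. ILMN_2690147 had intensities of 271.6 and 294.9 in EPC, 280.0 and 329.5 in EPC_acLDL, and 284.0 and 299.3 in EPC_Late, with detection p-values of 0.63 to 0.912. ILMN_2740782 had 307.4 and 359.6 in EPC, 301.3 and 360.2 in EPC_acLDL, and 330.2 and 387.9 in EPC_Late, with detection p-values of 0.254 to 0.534. In intensity the 3 lines overlapped for both probes. On the normalized log2 scale ILMN_2690147 was 5.40 and 5.38 in EPC, 5.51 and 5.59 in EPC_acLDL, and 5.36 and 5.35 in EPC_Late, without overlap but with EPC_Late lowest, whereas the lines overlapped for ILMN_2740782. RefSeq lists 2 curated transcripts for the gene, and which of them each probe reads is not given in the sources used here. The disagreement between probes was common on these arrays. Of 383 gene names with 3 probes, of which at least 1 was read on the 2 arrays of some line, 290 (75.7%) had the other 2 probes above background on no array. With the 3 Tgm5 probes averaged, the log2 difference in the acLDL comparison was 0.91, against 2.58 for the probe above background. The Tgm5 values here therefore rest on a single probe.

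For orientation, the sequence before the annotated start of Tgm5, the only member above background, is given from RefSeq (GRCm38.p6, chr2:121085842-121086091, minus strand, written 5′ to 3′ and ending at the base before the gene's start). The capitals mark the single match to a motif that was searched.
Tgm5: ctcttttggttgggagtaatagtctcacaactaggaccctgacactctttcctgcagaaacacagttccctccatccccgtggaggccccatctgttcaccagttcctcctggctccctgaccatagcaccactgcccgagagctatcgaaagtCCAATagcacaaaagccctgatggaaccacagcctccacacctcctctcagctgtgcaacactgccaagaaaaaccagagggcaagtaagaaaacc
Both strands of these 250 bases were searched for the letters TATAAA, known as a TATA box. They were also searched for GGGCGG, a GC box. The other motifs were CCAAT, which names its own box, and the AP-1 site, written TGANTCA. Only CCAAT was found, once, starting at position -96 from the gene's start. Of all 32851 promoters of this length in the table, 33.8% held a CCAAT box, 32.7% a GC box, 12.4% a TATA box and 6.75% an AP-1 site. These are matches of letters, and no binding was measured.

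Tgm2, the member known from endothelium, was above background on none of the 6 arrays. The intensity of its probe, ILMN_2692615, was 341.2 and 361.6 in EPC, 273.0 and 374.8 in EPC_acLDL, and 337.3 and 382.5 in EPC_Late. Detection p-values ran from 0.192 to 0.788, and the lines overlapped.

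Tgm1 and Tgm3, which act beside Tgm5 in the epidermis, were also above background on 0 of 6 arrays each. The Tgm1 probe ILMN_2743642 had intensities of 302.8 and 365.7 in EPC, 339.3 and 366.8 in EPC_acLDL, and 356.1 and 349.6 in EPC_Late, with detection p-values of 0.207 to 0.568. The Tgm3 probe ILMN_2777363 had 329.3 and 323.6 in EPC, 293.0 and 313.9 in EPC_acLDL, and 332.8 and 336.3 in EPC_Late, with detection p-values of 0.271 to 0.782. Neither probe came near the level at which a signal is called on these arrays.

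Tgm4, the prostate member, and Tgm6, the neural member, gave the same picture, with 0 of 6 arrays each above background. The Tgm4 probe ILMN_1245431 had intensities of 300.2 and 345.9 in EPC, 277.5 and 346.1 in EPC_acLDL, and 342.8 and 389.9 in EPC_Late, with detection p-values of 0.246 to 0.744. The Tgm6 probe ILMN_1245910 had 288.8 and 344.4 in EPC, 309.1 and 358.1 in EPC_acLDL, and 354.4 and 370.8 in EPC_Late, with detection p-values of 0.31 to 0.709. Over all 7 member probes above background on no array, the intensity was 62.9% to 83.2% of the lowest intensity above background on the same array. A transcript at a level below this cannot be told from none at all on these arrays.

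**Figure D3:**
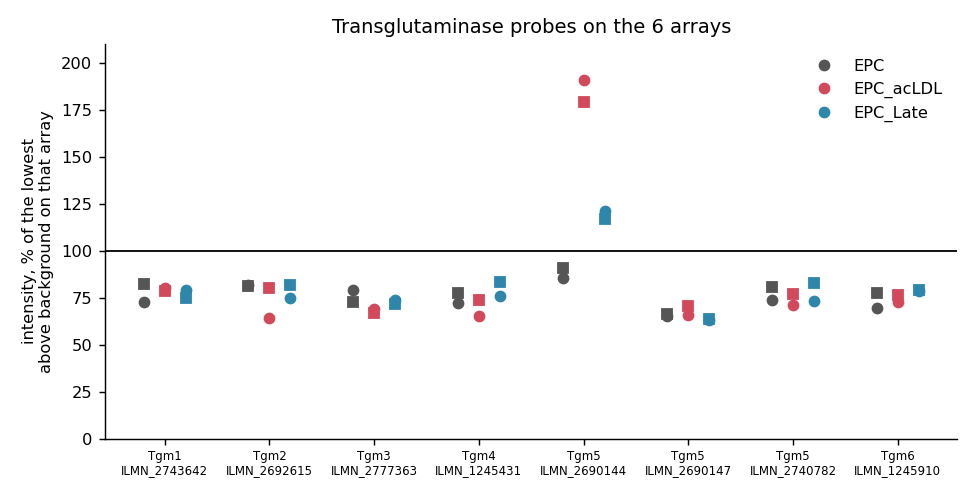
Intensity of the 8 transglutaminase probes as a percentage of the lowest intensity above background on the same array (vertical axis), with the probes along the horizontal axis. Circles are replicate 1 and squares replicate 2 of each line, and the black line at 100% is the limit of detection. Tgm5 probe ILMN_2690144 reached 179% and 191% in EPC_acLDL and 117% and 121% in EPC_Late, and every other point lies below the line.

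Tests between lines were run on the 2333 probes (9.08%) that reached detection in duplicate in at least 1 line, and of the 8 transglutaminase probes only that of Tgm5 was among them. No test of the other 5 genes could therefore be made at this filter. When all 25697 probes were fitted without the filter, limma called 0 of the 5 probes in each of the 3 comparisons, with 0 at an unadjusted p below 0.05. The share of all probes called in that fit was 0.195% in the acLDL comparison, 1.91% in the late comparison and 1.52% in the passage comparison. The 2-tailed t-test named in the methods also gave 0 of the 5, unadjusted and adjusted. The log2 differences of the 5 probes lay between -0.22 and 0.25 (adjusted p of 0.74 to 0.99 from limma). These are differences between signals below background and do not show that the genes were alike in the 3 lines.

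Related genes outside the 6 were looked up in the same way. F13a1 and F13b encode the subunits of coagulation factor XIII, of which only that of F13a1 has the transglutaminase fold. Epb42 encodes an erythrocyte membrane protein of that fold without enzyme activity. These genes had 1 probe each. All 3 were above background on 0 of 6 arrays, with detection p-values of 0.579 to 0.935 for F13a1, 0.17 to 0.504 for F13b and 0.223 to 0.617 for Epb42. Epb42 lies next to Tgm5 on the chromosome in the RefSeq gene table of GRCm38.p6, followed by Ccndbp1 and Tmem62, and on the other side come Tgm7, Lcmt2 and Adal. Of these neighbours, Ccndbp1, Tmem62 and Adal had 4 probes between them, and each was above background on no array. Tgm7 and Lcmt2 were not analysed here. Thus among the genes around Tgm5 that were read, Tgm5 alone was above background, where 88.8% of all probes were so on no array.

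By log2 difference, and with the columns as labelled, Tgm5 was the second of the 2333 probes by increase in the acLDL comparison, for which it was chosen. Just before it was Cadm1, a cell adhesion molecule named Igsf4a in the file, with a log2 difference of 2.69, and just after it came the pluripotency transcription factor Sox2 with 2.01, Dnajc15 with 1.93 and probe ILMN_2647628 of Ppp1cb with 1.83. Neither Tgm5 nor Dnajc15 was above background in EPC, so that the place of both is not settled. The bound of 3.90-fold for Tgm5 is below the 4.02-fold measured for Sox2. By log2 difference Tgm5 was in place 61 in the late comparison and in place 2279 in the passage comparison. By log2 difference it was among the 0.772% of probes at least 2-fold higher in the acLDL comparison and the 4.76% in the late comparison, although its bound of 1.69-fold in the latter is under 2-fold. With the labels of EPC and EPC_acLDL exchanged, Tgm5 would be the second by decrease in the acLDL comparison, among the 0.772% at least 2-fold lower. Tgm5 would then be in place 61 and among the 4.76% in the passage comparison, and in place 2279 in the late comparison. Its arrays did not overlap between the lines in any of the 3 comparisons, which was the case for 50.8%, 58.0% and 58.6% of all probes tested. Of all 25697 probes, 22 (0.0856%) were above background on no EPC array and on all 4 arrays of the other lines. Tgm5 was the only one of these with a detection p-value of 0 on both EPC_acLDL arrays.

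The probes with the pattern most like that of Tgm5 were found by the root mean square difference over the 6 arrays, after each probe was centred on its own mean log2 level. The nearest were 2 probes of a single gene named only by a RIKEN clone, at 0.49 for ILMN_3130719 and 0.56 for ILMN_2747501. Then came Efnb1 (0.57), which encodes the membrane ligand ephrin-B1, Lypla1 (0.63), an enzyme that removes fatty acids from proteins, and probe ILMN_2647627 of Ppp1cb (0.64), a catalytic subunit of protein phosphatase 1. All 5 had higher mean levels in EPC_acLDL than in EPC, and they differed from each other in EPC_Late.

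Efnb1 was high in EPC_acLDL alone. The intensity of probe ILMN_2698443 was 1106.2 and 1223.4 in EPC, 3721.7 and 3607.5 in EPC_acLDL, and 1167.0 and 1241.1 in EPC_Late, above background on all 6 arrays. EPC and EPC_Late overlapped, and EPC_acLDL stood above both. Lypla1 alone of the 5 shared the detection pattern of Tgm5, with intensities of 363.3 and 443.2 in EPC, 542.0 and 550.4 in EPC_acLDL, and 486.2 and 518.2 in EPC_Late. For ILMN_3130719 of the RIKEN gene the intensities were 1287.6 and 1327.5 in EPC, 3837.4 and 3632.7 in EPC_acLDL, and 3160.5 and 3362.0 in EPC_Late. Here too the order was that of Tgm5, without overlap. For the gene's other probe, ILMN_2747501, EPC was again lowest, but EPC_acLDL with 2143.7 and 2127.2 overlapped with EPC_Late at 1766.2 and 2204.8. Ppp1cb had its highest mean log2 level in EPC_Late. These probes were picked for their likeness to Tgm5 on the same arrays, and likeness over 6 arrays of 3 lines is a description.

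**Figure D4:**
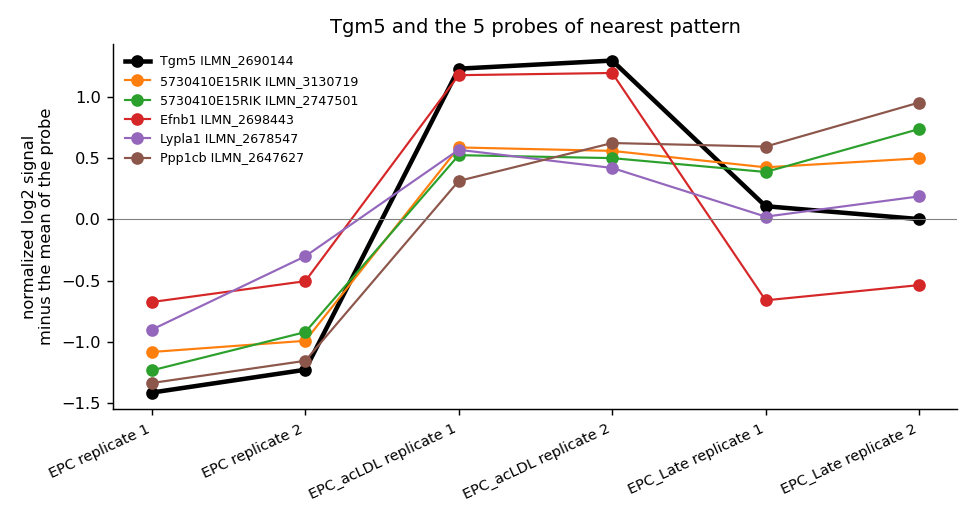
Normalized log2 signal minus the mean of the probe over the 6 arrays (vertical axis) for Tgm5 (black) and the 5 probes nearest to it by root mean square difference (0.49 to 0.64), on each array (horizontal axis). Lines join the arrays for reading and stand for no order in time. Only Efnb1 falls back to the EPC level in EPC_Late.

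The substrates of the epidermal transglutaminases were nearly all below background. The list of cornified envelope and epidermal genes had 53 probes for 45 genes, among them involucrin, loricrin, filaggrin-2, periplakin and the small proline-rich proteins. Of the 53 probes, 49 were above background on no array and 1 (1.89%) passed the detection filter, against 9.08% of all probes. This was S100a11, a calcium-binding protein that is crosslinked into the envelope and is also expressed widely outside skin. Its intensity was 2033.4 and 1958.4 in EPC, 1898.8 and 2111.8 in EPC_acLDL, and 1610.2 and 1450.3 in EPC_Late. The EPC_Late arrays were the lowest, and EPC and EPC_acLDL overlapped in intensity.

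S100a11 fell 1.43-fold from EPC to EPC_Late, with a difference of -0.52 on the log2 scale (SE 0.13, adjusted p = 0.032 from limma). Of all probes tested, 13% were called lower in EPC_Late in this comparison. With the labels of EPC and EPC_acLDL exchanged, the passage comparison would hold this call and this share. The call was lost in every fit without 1 array (adjusted p of 0.055 to 0.15 from limma) and kept in 9 of all 18 alternatives. It passed neither in the acLDL comparison (log2 difference -0.28, adjusted p = 0.29 from limma) nor in the passage comparison (-0.24, adjusted p = 0.28 from limma), but it was called in the latter with a shift to the 75th percentile (-0.50, adjusted p = 0.048 from limma). Lce1c was above background on 3 of 6 arrays and Lce3c and SPRR2A on 1 of 6 each, all without passing the filter. After quantile normalization S100a11 was highest in EPC, whereas without normalization its log2 difference in the acLDL comparison was 0.

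The partners and substrates of Tgm2 in matrix and membrane, such as the fibronectin-binding integrins, the syndecans, Lrp1 and Mfge8, had 28 probes for 20 genes, of which 25 were above background on no array. Those that passed the filter were Kdr, also an endothelial marker, and Ltbp1, which anchors latent TGF-beta to the matrix. Limma called 0 of the 2 in each comparison, where it called 3.30% of all probes in the acLDL comparison, 23.9% in the late comparison and 20.9% in the passage comparison. At an unadjusted p below 0.05, 0 of the 2 passed by limma and 0 by the t-test of the methods. Of all 2333 probes tested, 469, 806 and 744 did so by limma, and 355, 585 and 568 by the t-test, in the same order. The Kdr level was 7.91 in EPC, 7.89 in EPC_acLDL and 7.92 in EPC_Late on the log2 scale, with an SE of 0.13 for each difference. Ltbp1 was above background on 4 of 6 arrays by probe ILMN_2765452 and on no array by its other probes. For that probe the log2 differences to EPC were 0.16 in EPC_acLDL and 0.24 in EPC_Late (SE 0.18). Over the 3 genes of both lists that were tested, the median log2 difference was -0.01 in the acLDL, 0.01 in the late and 0.02 in the passage comparison, beside 0.01, 0.01 and 0 over all probes tested.

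Among 25 probes for 17 genes that act on transglutaminases, 4 passed the filter (16.0%). These were Pdia3, a disulfide isomerase that can oxidize and inactivate Tgm2 outside the cell, Rarb, a retinoic acid receptor, Tgfb1, a growth factor that can induce Tgm2, and Adra1a, an adrenergic receptor of the family that signals with Tgm2. In the late comparison 2 of the 4 rose and 2 did not pass, where 10.9% of all probes were called higher. With the labels of EPC and EPC_acLDL exchanged, these 2 calls and the 10.9% would be in the passage comparison. The late comparison would then hold 0 calls of the 4, with 9.34% of all probes called higher. In the acLDL comparison as labelled, limma called 0 of the 4 (1.93% of all probes were called higher), and in the passage comparison 0 of the 4 (9.34% called higher). At an unadjusted p below 0.05 limma had 2 of the 4 in the acLDL, 3 in the late and 1 in the passage comparison. Of all 2333 probes tested, 469, 806 and 744 were so, in the same order. The t-test of the methods, unadjusted, gave 0 of the 4 in the acLDL, 1 in the late and 0 in the passage comparison, and 0 after adjustment. Unadjusted, it gave 355, 585 and 568 of the 2333 probes tested. The median log2 difference of the 4 was 0.33 in the acLDL, 0.66 in the late and 0.10 in the passage comparison.

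Pdia3 was far above background on all 6 arrays, with intensities of 35037.3 and 32623.1 in EPC, 47133.1 and 42511.0 in EPC_acLDL, and 45599.2 and 46420.8 in EPC_Late. Before normalization EPC was lowest and the other lines overlapped. After it, Pdia3 was 1.52-fold higher in EPC_Late than in EPC (log2 difference 0.61, SE 0.13, adjusted p = 0.016 from limma), and this call was lost with a shift to the 75th percentile in place of quantiles (0.37, adjusted p = 0.10 from limma). It was also lost in 3 of the 6 fits without 1 array, namely without EPC replicate 1, EPC replicate 2 or EPC_Late replicate 2 (adjusted p = 0.056, 0.085 and 0.095 from limma), and was kept in 13 of all 18 alternatives. In the passage comparison Pdia3 did not pass (0.43, adjusted p = 0.060 from limma), but it was called in 4 of 18 alternatives, among them limma-trend (adjusted p = 5e-05), and the difference was 0.05 with the shift to the 75th percentile.

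Rarb rested on probe ILMN_2617194, since its probes ILMN_2886828 and ILMN_1246864 were above background on no array. The signal was dim, with intensities of 388.2 and 390.1 in EPC, 448.6 and 453.4 in EPC_acLDL, and 494.8 and 473.7 in EPC_Late. It was above background on 0 of 2 EPC arrays, 1 of 2 EPC_acLDL arrays and both EPC_Late arrays, and was at least 1.15-fold higher in EPC_Late than in EPC (adjusted p = 0.039 from limma). Of the 6 fits without 1 array, the call was kept in 1 (adjusted p of 0.046 to 0.18 from limma), that without EPC replicate 1, and it was kept in 6 of all 17 alternatives that tested it. Tgfb1 had intensities of 433.4 and 382.6 in EPC, 523.7 and 574.4 in EPC_acLDL, and 501.7 and 599.3 in EPC_Late. The log2 difference to EPC was 1.08 in EPC_acLDL (SE 0.34, adjusted p = 0.16 from limma) and 1.04 in EPC_Late (adjusted p = 0.077 from limma), and neither passed. Tgfb1 rested on the EPC arrays. Without EPC replicate 1 the difference was 1.56 in the acLDL comparison and 1.52 in the late comparison, where it was called (adjusted p = 0.02 from limma), and without EPC replicate 2 it was 0.60 and 0.56. Tgfb1 was called in 3 of 17 alternatives in the acLDL comparison and in 6 of 17 in the late comparison. Adra1a did not pass in any comparison, with log2 differences of 0.16, -0.16 and -0.32 (SE 0.15) for probe ILMN_1232907. Its other probe was above background on no array.

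**Figure D5:**
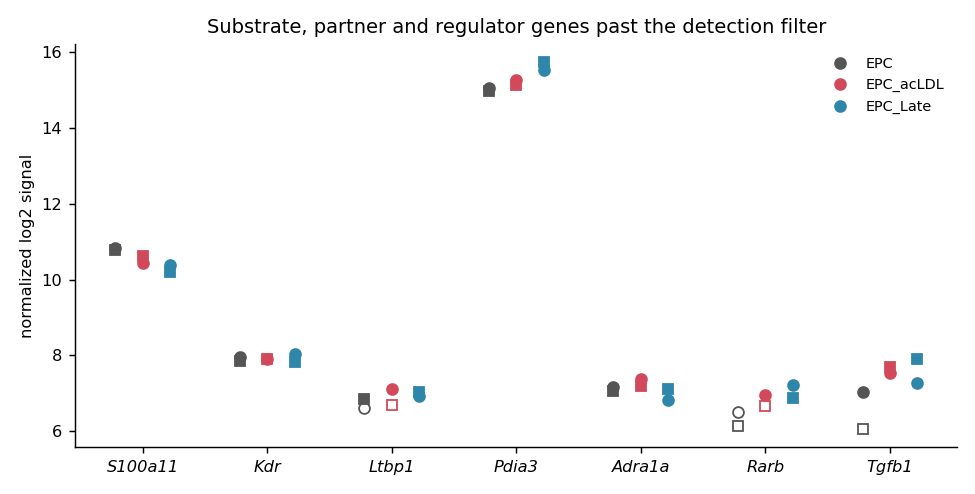
Normalized log2 signal (vertical axis) of the 7 substrate, partner and regulator genes of transglutaminases that passed the detection filter (horizontal axis), with 2 arrays per line (circles replicate 1, squares replicate 2). Open symbols are arrays on which the probe was not above background, and levels are to be compared between lines within a gene only. S100a11 is lowest and Pdia3 highest in EPC_Late.

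Markers of keratinocytes, the cells in which Tgm5 is best known, were checked with the same 6 arrays. Over 12 probes for 9 genes the summed intensity, as a multiple of the median intensity of each array, was 12.9 to 13.4 in EPC, 14.0 to 14.1 in EPC_acLDL and 13.2 on both EPC_Late arrays, so that the sum was highest in the line with most Tgm5 while EPC and EPC_Late overlapped, and its part in the Tgm5 values was not tested. The defining keratins Krt5, Krt14 and Krt15 and the transcription factor Trp63 were above background on no array. Of the 12 probes, 3 passed the filter (25%, against 9.08% of all probes), those of Col17a1, Pkp1 and Klk7. A probe of Sfn, ILMN_2648169, had intensities of 310.5 and 324.9 in EPC, 435.5 and 422.9 in EPC_acLDL, and 312.0 and 360.1 in EPC_Late, and was above background on 1 EPC_acLDL array. The other Sfn probe, ILMN_2867084, lay at 296.1 to 338.6 on all arrays, with EPC and EPC_acLDL overlapping, and was above background on no array. EPC and EPC_acLDL also overlapped in intensity for each probe of Krt5, Krt14, Krt15, Trp63, Pkp1, Col17a1 and Perp. For Klk7 they did not, with 410.6 and 423.4 in EPC, 435.0 and 468.6 in EPC_acLDL, and 429.2 and 487.3 in EPC_Late. The Klk7 probe was above background on 0 EPC, 2 EPC_acLDL and 1 EPC_Late arrays. Of 15 probes for markers of simple and lung epithelium, 14 were above background on no array, the exception being Cdh1 on all 6, and the sum over the 15 probes was 15.8 to 16.0 in EPC and 16.0 to 16.7 in each of the other lines. For fibroblast and smooth muscle markers the sum was 16.8 to 17.2 in EPC, 17.3 to 17.9 in EPC_acLDL and 17.1 to 17.2 in EPC_Late. This sum was likewise highest in EPC_acLDL, without overlap. Of its 16 probes 13 were above background on no array, and 12.5% passed the filter, against 9.08% of all probes. A probe of Acta2 and that of Col1a2 were above background on all 6 arrays.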

How the data were processed

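Mouse RNA of 3 lines was read on 6 arrays. The authors used BeadStudio to combine beads into probes and to subtract a local background. They deposited, for every probe on each array, a linear intensity that was not normalized and a detection p-value. The authors name no genome build. The file's names matched 14309 symbols and 2886 synonyms of a GRCm38.p6 gene table, and 943 were kept. All 6 members matched a symbol, and 5 have a promoter in the RefSeq table. The members and gene lists were chosen with earlier results of these data known.

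The limma package (3.58.1, under R 4.3.3) was used throughout. Its neqc function estimated the background from the detection p-values, added an offset of 16 and quantile normalized on the log2 scale. The 2333 probes whose detection p was under 0.05 in duplicate in some line entered a single lmFit and eBayes model of the 6 arrays with no covariate. Calls were made at a Benjamini-Hochberg adjusted p below 0.05. No test was made of Tgm5. Named genes are all member probes, the list probes past the filter, the neighbours of Tgm5 by rank and by locus, and the 5 probes of nearest pattern. The alternatives were other background corrections and scalings, other filters, a replicate block, limma-trend, the methods' t-test, the 4 arrays of 2 lines alone and each array left out. In intensities simulated for EPC_Late against EPC, 200 of 200 changed probes were recovered among 2287 tested, and 10.3% of all calls fell on unchanged probes. The changed probes were drawn from those with a detection p below 0.01 on all 6 arrays. Each was given a change larger than that of any list gene called in the main fit. The recovery therefore does not carry over to probes near background or to smaller changes. The number of arrays limits the precision.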

Additional observations from a re-analysis of the deposited data

How the results depend on the processing

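Probe signals near background limit most values here, and with 2 arrays per line the spread is poorly known. Tgm5 kept its direction in all 3 comparisons under all 14 alternatives run. The averaging of its 3 probes was chosen after seeing the data. The log2 differences of Tgm5 of 2.58 (EPC_acLDL against EPC), 1.37 (EPC_Late against EPC) and -1.21 (EPC_Late against EPC_acLDL) became 1.66, 0.83 and -0.83 with an offset of 50, 1.01, 0.45 and -0.56 when the background was kept, 1.12, 0.44 and -0.68 when values were floored at 1 and shifted to the 75th percentile, and 0.91, 0.46 and -0.45 as the mean of the 3 probes. Background that stays in both signals shrinks their ratio. With that shift alone the acLDL and passage values were 2.69 and -1.34, and without normalization 2.77 and -1.35. Under these last settings the median over the probes tested was 0.16 and 0.25 (acLDL, beside 0.01) and -0.15 and -0.16 (passage, beside 0). With single arrays left out the differences ranged from 2.49 to 2.70, from 1.29 to 1.49 and from -1.26 to -1.16.

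The replicate block left the Tgm5 differences at 2.58, 1.37 and -1.21. The deviations of same-numbered arrays correlated at only 0.02 to 0.08, which does not settle whether the numbers pair the arrays. The median intensity before normalization was higher on replicate 2 than on replicate 1 in each line. It was 342.4 against 311.0 in EPC, 345.2 against 304.6 in EPC_acLDL and 358.7 against 336.6 in EPC_Late. The single substrate called between EPC_Late and EPC, S100a11, was not called with the block (0 called), without the filter (0), with the adjusted t-test of the methods (0) or with any array left out (0 to 0). Between EPC_Late and EPC_acLDL, where 0 were called, the shift to the 75th percentile, no normalization and the floor with shift gave 1 each, again S100a11. The cause was not tested. The other 5 transglutaminases were tested only without the filter, where 0 were called.

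Over all probes, the 77 calls between EPC_acLDL and EPC ranged from 1 with the adjusted t-test to 355 with the unadjusted one, and from 9 to 31 with single arrays left out. The 557 between EPC_Late and EPC ranged from 15 with the adjusted t-test to 693 with limma-trend, and from 356 to 454 with arrays left out. The 487 between EPC_Late and EPC_acLDL ranged from 11 to 631, and from 197 to 442. The share of higher calls moved from 58.4% to 82.6%, 91.6% and 90.5% in the acLDL comparison and from 44.8% to 26.1%, 24.5% and 20.8% in the passage comparison with the shift, no normalization and the floor with shift.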
